A study of Mus musculus with 20 samples.

Results

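The genes described here are 38 mouse genes of DNA replication and S phase, taken by symbol from a gene table of 25746 genes. All 38 were found in the table and all 38 were expressed highly enough to be tested among 14968 genes. Most encode parts of the machine that copies DNA: the helicase and its loaders, the polymerases and primase, the sliding clamp with its loader, and the enzymes that join the strands. The others supply deoxynucleotides, rebuild chromatin behind the fork or control entry into S phase.

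The cells were eGFP+ cardiac fibroblasts sorted from hearts of mice carrying an inducible Cre, MerCreMer, for the lineage of Tcf21, a transcription factor gene of resident cardiac fibroblasts. They were taken on day 3, day 7, week 2 or week 4 following an infarct (myocardial infarction, MI) or from uninjured hearts, and RNA-seq and ATAC-seq each had 2 libraries a group. By the labels' common treatment protocol the mice of every group, uninjured included, received tamoxifen at 75 mg/kg/day for 5 days, which switches the recombinase on. The sort gate was set on WT eGFP- cells, so that the sorted cells should be those that carried Tcf21-driven recombination or descend from such cells. The gate alone does not show this for every cell, and RNA of markers of other cells was detected, as given below. RNA came from 10000 sorted cells. The labels give no strain, age or sex, and do not say whether both libraries of a group are separate animals. The p-values below therefore reflect only how far these libraries spread, and that spread may be technical.

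DNA replication starts when the ring-shaped MCM helicase is loaded onto origins in G1 by the origin recognition complex, Cdc6 and Cdt1. In S phase Cdc45 and the GINS complex join the ring, the primase and polymerases copy both strands, and the clamp Pcna holds the polymerases on the template. Many of these genes are transcribed under E2F factors, which are held in check by the Rb family until cyclin E and Cdk2 act in late G1. Fibroblasts of the uninjured adult heart divide little, and fibroblast proliferation in the first days after MI is well known.

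The RNA libraries held 16397211 to 21043997 counts and the ATAC-seq peak lists 63901 to 107798 peaks. Fibroblast genes were detected in every RNA library: the proteoglycan gene Dcn lay between 5120 and 24092 CPM (counts relative to the scaled total of the library), the receptor gene Pdgfra between 147 and 779 CPM, and Tcf21 between 7.82 and 36.2 CPM. Week 2 replicate 2 is the RNA library whose code in the labels begins with B, where the codes of the other 9 begin with C; without it 29 members instead of 26 were called at day 3 in the main comparison below, and without week 2 replicate 1 the count was 29 too. Markers of fibroblasts and of other cells moved with the groups. As the background for the counts that follow, 7.39% of all tested genes rose and 4.4% fell at day 3 against uninjured. Of 12 fibroblast markers 4 rose and 5 fell at day 3 against uninjured (median log2 fold change −0.74), and they summed to 40330 and 25120 CPM in day 3 libraries against 64620 and 66270 CPM in uninjured libraries. Of 20 macrophage and monocyte markers, 14 rose at day 3 against uninjured, and their summed level was 894 and 1457 CPM in day 3 libraries against 87.4 and 98.4 CPM in uninjured libraries. It was higher still at day 7, at 2373 and 4043 CPM. Of those markers Itgam had no counts in either uninjured library, and Cd163 had none in day 3 replicate 2. Of 15 endothelial markers, 7 fell at day 3, with sums of 571 and 414 CPM in day 3 libraries against 1053 and 897 CPM in uninjured libraries, and Tie1 and Vwf had no counts in day 3 replicate 2. Of 7 pericyte and smooth muscle markers 2 fell at day 3, with sums of 153 and 66.2 CPM in day 3 libraries against 878 and 386 CPM in uninjured libraries. Of 7 cardiomyocyte markers 1 fell, with sums of 54.3 and 33.5 CPM at day 3 against 142 and 174 CPM in uninjured libraries. None of 5 erythroid markers passed, at sums of 1205 and 142 CPM at day 3 against 4132 and 5984 CPM in uninjured libraries. The 8 lymphocyte markers summed to at most 7.72 CPM in any library. The part of these cells in the results below was not tested.

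Promoter sequences are shown first, with the letters of the E2F site. The members were taken by symbol and not by these letters. Many such genes are transcribed under E2F factors, as said above, so the share below is not independent of that choice. RefSeq promoter windows of the build GRCm38.p6, 250 bases before to 50 bases after a gene's start, were found for 32 of the 38 members. Ccne2, Prim2, Gins1, Gins2, Mcm4 and Pole had none in the table. Each is printed 5′ to 3′ on the strand of the gene, in lower case, with E2F letters in capitals. Pclaf is shown for its fold change, Mcm5, Mcm6 and Rfc3 for their paired or overlapping matches, Pola1 as the member that fell at day 7, and Rrm2 as a gene that rose with no match.
Pclaf promoter, chr9:65890073-65890372, plus strand: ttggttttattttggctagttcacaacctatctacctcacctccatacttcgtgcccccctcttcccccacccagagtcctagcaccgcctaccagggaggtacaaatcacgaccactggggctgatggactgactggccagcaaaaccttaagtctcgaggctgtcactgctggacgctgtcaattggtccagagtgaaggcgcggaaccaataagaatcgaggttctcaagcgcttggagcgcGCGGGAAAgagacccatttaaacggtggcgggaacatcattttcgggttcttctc
Mcm5 promoter, chr8:75109259-75109558, plus strand: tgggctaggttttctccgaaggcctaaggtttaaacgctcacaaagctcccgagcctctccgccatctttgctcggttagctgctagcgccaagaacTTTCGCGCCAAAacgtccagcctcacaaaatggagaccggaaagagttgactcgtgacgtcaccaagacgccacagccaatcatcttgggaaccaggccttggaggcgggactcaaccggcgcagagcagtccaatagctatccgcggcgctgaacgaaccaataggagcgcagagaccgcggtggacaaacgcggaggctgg
Mcm6 promoter, chr1:128359656-128359955, minus strand: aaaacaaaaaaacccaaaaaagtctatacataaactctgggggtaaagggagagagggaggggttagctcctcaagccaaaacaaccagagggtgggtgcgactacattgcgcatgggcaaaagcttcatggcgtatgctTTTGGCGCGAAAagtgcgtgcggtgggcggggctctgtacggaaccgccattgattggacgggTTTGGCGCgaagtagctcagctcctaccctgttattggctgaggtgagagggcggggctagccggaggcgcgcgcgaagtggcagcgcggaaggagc
Rfc3 promoter, chr5:151651159-151651458, minus strand: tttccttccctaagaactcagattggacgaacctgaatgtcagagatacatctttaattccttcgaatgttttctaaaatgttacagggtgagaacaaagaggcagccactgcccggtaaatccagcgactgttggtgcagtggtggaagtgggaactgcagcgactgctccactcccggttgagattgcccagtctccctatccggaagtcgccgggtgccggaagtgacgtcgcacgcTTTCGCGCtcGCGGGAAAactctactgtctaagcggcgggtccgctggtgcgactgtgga
Pola1 promoter, chrX:93632106-93632405, minus strand: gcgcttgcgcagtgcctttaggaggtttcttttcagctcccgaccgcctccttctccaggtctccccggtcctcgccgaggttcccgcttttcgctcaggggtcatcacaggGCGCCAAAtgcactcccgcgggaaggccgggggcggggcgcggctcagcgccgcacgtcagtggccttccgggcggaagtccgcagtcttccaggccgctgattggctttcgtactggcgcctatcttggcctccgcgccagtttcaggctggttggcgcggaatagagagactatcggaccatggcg
Rrm2 promoter, chr12:24708004-24708303, plus strand: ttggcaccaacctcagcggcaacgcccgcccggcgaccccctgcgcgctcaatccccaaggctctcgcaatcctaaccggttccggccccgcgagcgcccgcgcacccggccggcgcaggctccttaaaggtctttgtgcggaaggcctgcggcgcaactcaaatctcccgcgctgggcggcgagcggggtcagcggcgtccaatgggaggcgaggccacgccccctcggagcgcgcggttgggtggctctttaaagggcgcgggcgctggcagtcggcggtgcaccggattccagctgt

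The letters searched were TTTGGCGC, TTTCCCGC, TTTGCCGC and TTTCGCGC on both strands, and each is a common form of the E2F site. At least 1 match was found in 13 of 32 members (40.6%), against 4.47% of 11019 tested genes with a window and 2.6% of the 27025 genes in the promoter table. The 13 members held 19 matches, of which 11 lay within 100 bases of the start. Mcm3, Mcm5, Mcm6, Mcm7 and Rfc3 held 2 or more, and overlapping forms on opposite strands, as in Mcm5 and in the pair farther from the start of Mcm6, were each counted. Of 16 mitosis genes with a window, 1 (6.25%) held E2F letters, and of 13 genes for DNA synthesis outside S phase 0 did. The CHR element letters TTTGAA, known from promoters of late cell cycle genes, showed the opposite pattern: 3 of 32 members (9.38%) held them, against 12 of 16 mitosis genes (75%) and 14.7% of tested genes. The CCAAT box was found in 17 members (53.1%), 15 mitosis genes (93.8%) and 42.7% of tested genes. A match is a description of the letters and not of a bound factor. No match in Rrm2, Mcm10 or Tk1 says only that these letters are not in their windows.

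**Figure D1:**
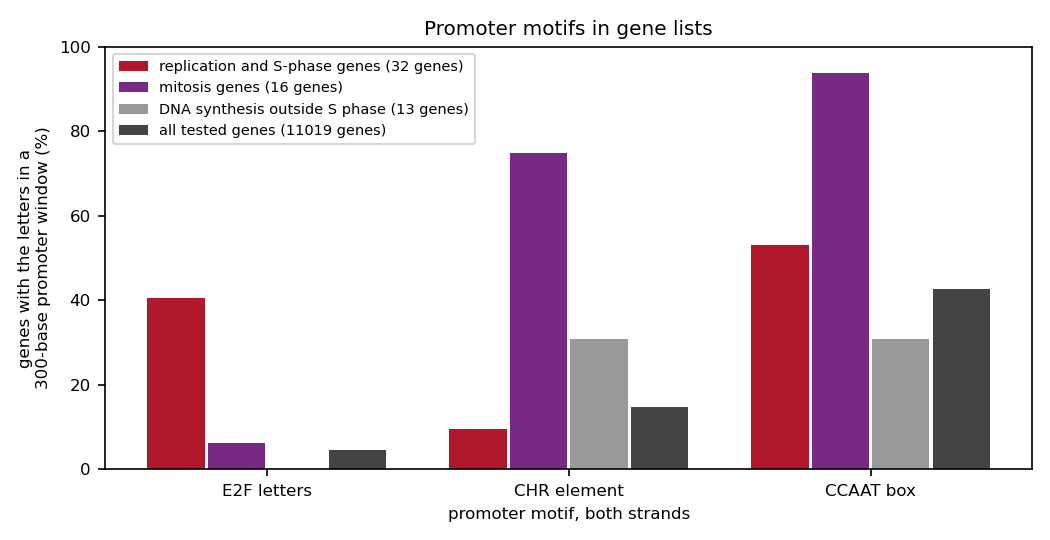
Share of genes (%) whose 300-base promoter window holds the letters of the E2F site, the CHR element or the CCAAT box, for 32 replication and S-phase genes, 16 mitosis genes, 13 genes of DNA synthesis outside S phase and 11019 tested genes. E2F letters were found in 40.6% of replication and S-phase genes against 6.25% of mitosis genes, and CHR letters in 9.38% against 75%.

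At day 3 the replication genes stood high together. Of the 38 members 26 rose and 0 fell against uninjured in edgeR's quasi-likelihood test with Benjamini-Hochberg adjustment at 0.05 over all tested genes, where 7.39% of all tested genes rose and 4.4% fell. The fitted log2 fold change was above 0 for all 38 and ran from 0.86 to 7.82, with a median of 2.52, against a median of −0.02 over all tested genes. In 37 of the 38 both day 3 libraries lay above both uninjured libraries, which held for 29.5% of tested genes; the exception was Chaf1a. In 34 members both day 3 libraries were the highest 2 of all 10 libraries, which held for 11.8% of tested genes. Summed over the members the level was 2801 and 3040 CPM in day 3 libraries against 566 and 597 CPM in uninjured libraries. In bulk RNA, more cells in S phase and more of these RNAs in each cell cannot be told apart.

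**Figure D2:**
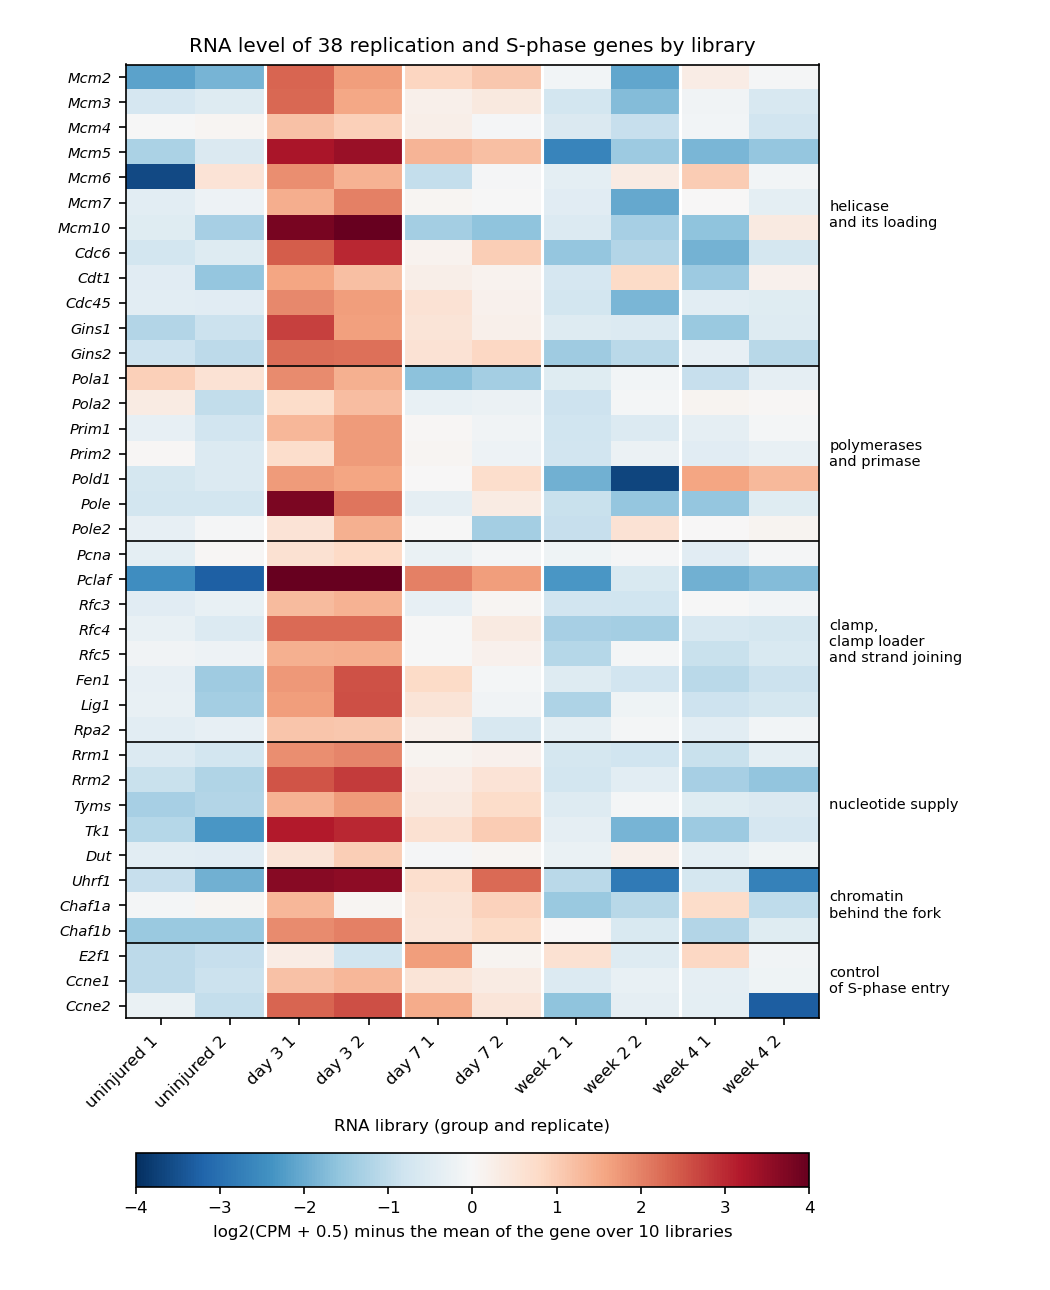
Heat map of the 38 members (rows, by role) in the 10 RNA libraries (columns, 2 a group, uninjured to week 4), as log2(CPM + 0.5) minus each gene's mean over the 10 libraries; red is above that mean and blue below it, and colours are capped at 4. Both day 3 columns are red in most rows, and 34 members have their highest 2 libraries there, against 11.8% of tested genes.

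All 5 genes of nucleotide supply rose at day 3. Rrm2, the regulatory subunit of the S-phase ribonucleotide reductase that makes deoxynucleotides, had 211 and 256 CPM in day 3 libraries against 19.5 and 15.3 CPM in uninjured libraries (log2 fold change 3.75 ± 0.29 SE, adjusted p = 2.4e-05, a 13.4-fold rise). Its partner Rrm1, the catalytic subunit, had 327 and 352 CPM at day 3 against 61.4 and 54.2 CPM in uninjured libraries (2.55 ± 0.24, adjusted p = 8.5e-05). Both subunits were thus separated from uninjured by far more than the spread of either pair of libraries. Tk1, the thymidine kinase of the S-phase salvage route, had 117 and 106 CPM at day 3 against 5.49 and 2.09 CPM in uninjured libraries (4.87 ± 0.63, adjusted p = 0.00065). Tyms, which makes thymidylate, had 138 and 169 CPM at day 3 against 20.1 and 22.8 CPM in uninjured libraries (2.84 ± 0.28, adjusted p = 0.00015). Dut, which removes dUTP, moved least of the 5, with 54.5 and 75 CPM at day 3 against 28.3 and 27.8 CPM in uninjured libraries (1.21 ± 0.31, adjusted p = 0.024).

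All 8 genes of the clamp, the clamp loader and strand joining rose as well, and they held both the largest and the smallest log2 fold change of the 38. Pclaf, a small protein that binds the clamp, had 168 and 209 CPM in day 3 libraries against 1.17 and 0.482 CPM in uninjured libraries (7.82 ± 0.68, adjusted p = 7.6e-05). The clamp itself, Pcna, was already well expressed without injury and had 155 and 179 CPM at day 3 against 78.5 and 105 CPM in uninjured libraries (0.86 ± 0.24, adjusted p = 0.037). The groups did not overlap for either gene. Among the clamp loader subunits, Rfc4 had 66.6 and 66.4 CPM at day 3 against 10.9 and 9.06 CPM in uninjured libraries (2.74 ± 0.39, adjusted p = 0.0011). Rfc3 had 42 and 45.7 CPM at day 3 against 12.4 and 13.8 CPM in uninjured libraries, with an adjusted p of 0.011. Rfc5 had 65.5 and 67 CPM at day 3 against 22.1 and 21.1 CPM in uninjured libraries, with an adjusted p of 0.019. The flap endonuclease Fen1 and the ligase Lig1 finish the lagging strand. Fen1 had 78 and 138 CPM at day 3 against 18.5 and 8.36 CPM in uninjured libraries (3.01 ± 0.47, adjusted p = 0.0018). Lig1 had 61.9 and 117 CPM at day 3 against 15.5 and 7.13 CPM in uninjured libraries (2.99 ± 0.53, adjusted p = 0.0034). For both, day 3 replicate 2 was the higher library. Rpa2, a subunit of the complex that coats single-stranded DNA, had 77 and 75.8 CPM at day 3 against 26.4 and 28.4 CPM in uninjured libraries (1.48 ± 0.34, adjusted p = 0.014).

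Of the 12 helicase and loading genes 9 rose, and in all 12 both day 3 libraries lay above both uninjured libraries. The 6 subunits of the MCM ring covered a range of fitted sizes. Mcm5 had 76.8 and 87.4 CPM in day 3 libraries against 2.83 and 4.82 CPM in uninjured libraries (4.42 ± 0.55, adjusted p = 0.00058). Mcm2 had 54.5 and 34.1 CPM at day 3 against 1.97 and 2.52 CPM in uninjured libraries (4.30 ± 0.69, adjusted p = 0.002). Both were scarce in uninjured hearts. Mcm3 had 162 and 96.1 CPM at day 3 against 20.6 and 22.7 CPM in uninjured libraries (2.58 ± 0.40, adjusted p = 0.0017). Mcm7 had 76.4 and 111 CPM at day 3 against 20.4 and 23.6 CPM in uninjured libraries (2.09 ± 0.47, adjusted p = 0.012). Mcm4 moved least in the ring, with 116 and 98.8 CPM at day 3 against 50.4 and 53.8 CPM in uninjured libraries (1.05 ± 0.30, adjusted p = 0.039). Mcm6, the remaining subunit, had 159 and 116 CPM at day 3 against 3.15 and 64.5 CPM in uninjured libraries and did not pass (2.02 ± 1.13, adjusted p = 0.32); its 2 uninjured libraries stood 59 counts against 1204 counts apart. The differences between subunits were not tested.

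Among the loaders and activators of the ring, Mcm10, which joins the helicase at activation and is not a ring subunit, had 20.7 and 25.6 CPM at day 3 against 0.586 and 0.107 CPM in uninjured libraries, or 349 and 461 counts against 11 and 2 (6.03 ± 1.77, adjusted p = 0.045). Cdc6, which loads the ring with the origin recognition complex, had 31.6 and 48.5 CPM at day 3 against 3.09 and 3.7 CPM in uninjured libraries (3.56 ± 0.69, adjusted p = 0.0056). Both were scarce in uninjured hearts. Gins2, a subunit of GINS, had 78.5 and 76.3 CPM at day 3 against 8.9 and 7.56 CPM in uninjured libraries (3.23 ± 0.41, adjusted p = 0.00058). Cdc45 had 36.9 and 30.9 CPM at day 3 against 6.82 and 6.75 CPM in uninjured libraries (2.32 ± 0.55, adjusted p = 0.017). Gins1, at 17.9 and 8.15 CPM in day 3 libraries against 0.746 and 1.02 CPM in uninjured libraries, missed the threshold (adjusted p = 0.052). So did the loader Cdt1, at 17.4 and 13.3 CPM against 3.89 and 1.55 CPM (adjusted p = 0.1).

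Of the 7 genes of the polymerases and primase 2 rose, and these were the primase subunits. Prim1, the catalytic primase subunit, had 44.8 and 59 CPM at day 3 against 14.1 and 10.1 CPM in uninjured libraries (2.10 ± 0.40, adjusted p = 0.005). Prim2, the large primase subunit, had 34 and 68.6 CPM at day 3 against 21.4 and 14.2 CPM in uninjured libraries (1.53 ± 0.43, adjusted p = 0.039). In the other 5 both day 3 libraries were also above both uninjured libraries, with no call. Pola1, the catalytic subunit of the polymerase that extends the primer, had 60 and 43.5 CPM at day 3 against 30.8 and 23.9 CPM in uninjured libraries (0.92 ± 0.40, adjusted p = 0.17). Pole, the catalytic subunit of the leading strand polymerase, had the largest log2 fold change of the role, 5.04 ± 1.95 (adjusted p = 0.12), from 321 and 107 counts in day 3 libraries against 7 and 7 counts in uninjured libraries. The day 3 libraries lay far apart. Pold1, catalytic in the lagging strand polymerase, had an adjusted p of 0.095, and the accessory subunits Pola2 and Pole2 had 0.13 and 0.32.

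In the groups of chromatin and of S-phase entry 1 of 3 genes each rose. Chaf1b, a subunit of the CAF-1 histone chaperone, had 31 and 34 CPM at day 3 against 2.51 and 2.52 CPM in uninjured libraries (3.69 ± 0.59, adjusted p = 0.002). Its partner Chaf1a was the one member whose groups overlapped, with 8.96 and 3.44 CPM at day 3 against 3.04 and 3.48 CPM in uninjured libraries (adjusted p = 0.66). Uhrf1, which directs maintenance methylation to new DNA, had 43.8 and 42 CPM at day 3 against 1.39 and 0.429 CPM in uninjured libraries but just missed the threshold (5.55 ± 1.61, adjusted p = 0.052). Ccne1, which encodes cyclin E1, had 21.1 and 23.4 CPM at day 3 against 4.1 and 4.72 CPM in uninjured libraries (2.33 ± 0.55, adjusted p = 0.016). Ccne2, for cyclin E2, had 58.2 and 68.5 CPM at day 3 against 9.17 and 5.47 CPM in uninjured libraries (3.11 ± 0.93, adjusted p = 0.057). E2f1, the transcription factor for which the target genes are named, had only 6 and 2.55 CPM at day 3 against 2.08 and 2.3 CPM in uninjured libraries (0.96 ± 0.93, adjusted p = 0.57).

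**Figure D3:**
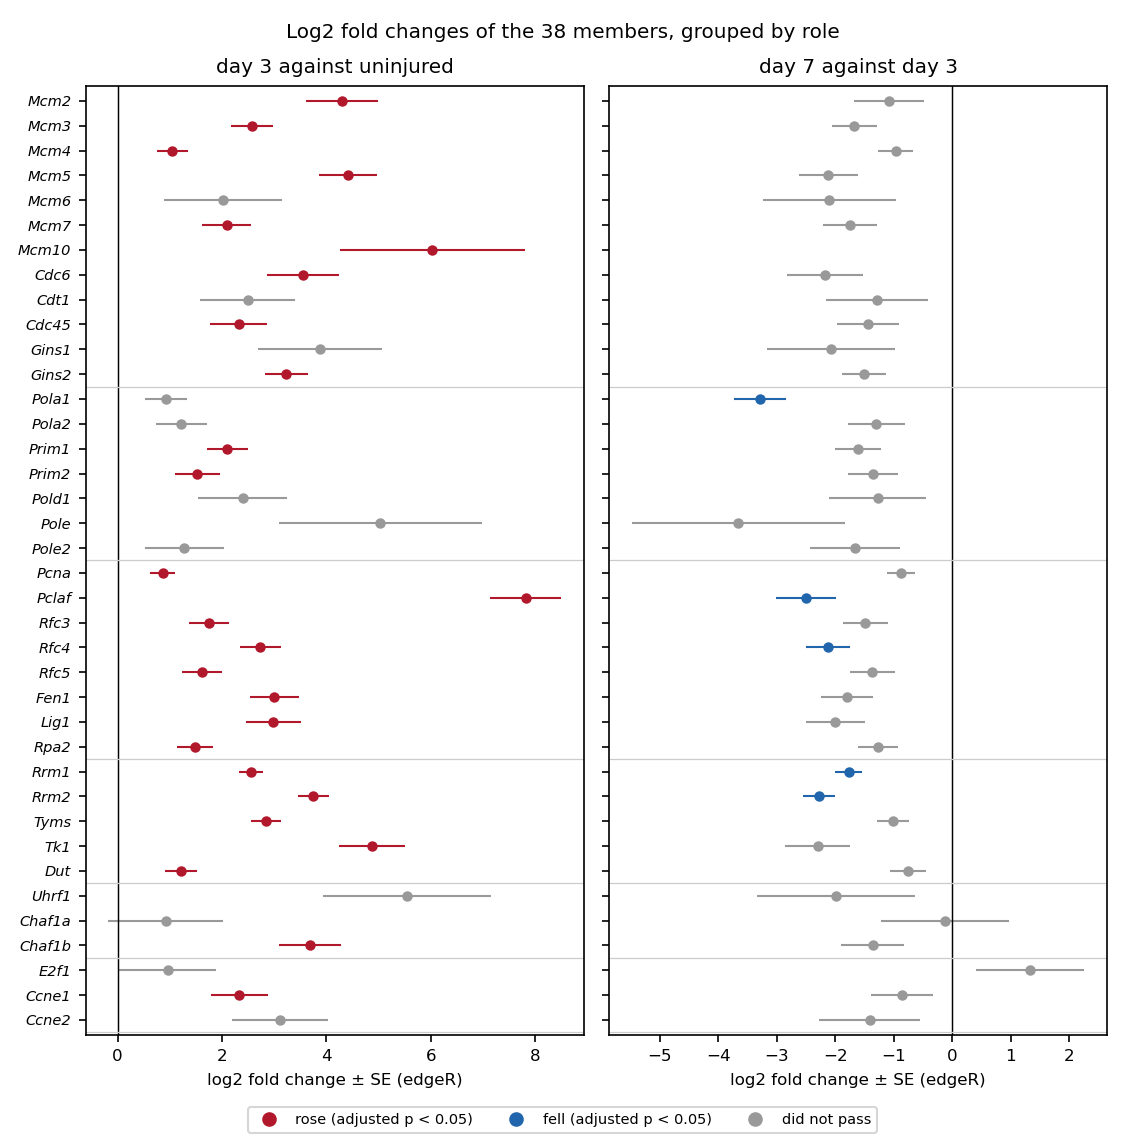
Log2 fold change ± SE from edgeR for each member, by role, for day 3 against uninjured (left) and day 7 against day 3 (right), red where a gene rose, blue where it fell and grey where it did not pass; Mcm10 has no point on the right because its day 7 libraries held 2 and 0 counts. All points on the left are above 0, from 0.86 for Pcna to 7.82 for Pclaf, and 5 points on the right are blue.

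The number of calls at day 3 depended on single libraries. It was 15 without uninjured replicate 1, 15 without uninjured replicate 2 and 13 without day 3 replicate 2, and 22 to 29 without any one of the other 7. The 13 members Mcm2, Mcm3, Mcm5, Gins2, Pclaf, Rfc4, Fen1, Lig1, Rrm1, Rrm2, Tyms, Tk1 and Chaf1b were called whichever library was left out. Pcna, Mcm4, Mcm10, Prim2 and the other 9 lost the call in at least 1 case, with an adjusted p of up to 0.43 for Prim2.

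Genes around the members were read from lists. Of 43 other replication genes, 10 rose and 0 fell at day 3, with a median log2 fold change of 1.24. The largest rises were Clspn, a checkpoint adaptor of the fork, at 28.3 and 29.1 CPM in day 3 libraries against 0.32 and 0.107 CPM in uninjured libraries (7.03 ± 1.21, adjusted p = 0.003), and Hells, a chromatin remodeller (4.87 ± 1.24, adjusted p = 0.033). The smallest were Pole3, a histone-fold subunit of the leading strand polymerase (1.24 ± 0.28), and Nasp, a histone chaperone (1.17 ± 0.33). Of 17 genes of the E2F and Rb families and their partners 1 rose and 1 fell, counts near the background of 7.39% of tested genes higher and 4.4% lower. Their median log2 fold change was 1.04, against −0.02 over all tested genes. Both day 3 libraries lay above both uninjured libraries in 10 of the 17 (29.5% of tested genes) and below them in 5. The gene that rose was Cdk2, the kinase of cyclin E (1.04 ± 0.29, adjusted p = 0.037), and the one that fell was Rbl2, which encodes the Rb relative p130 (−1.46 ± 0.37, adjusted p = 0.023). Rbl2 had 33.8 and 25.1 CPM in day 3 libraries against 71 and 91.2 CPM in uninjured libraries. Of 17 genes that make or use deoxynucleotides outside S phase 1 rose, the dNTP hydrolase Samhd1 (1.10 ± 0.28, adjusted p = 0.023), again near the background, and the median was 0.02. Their summed level was between 278 and 379 CPM in all 10 libraries. Rrm2b and Tk2, the counterparts of Rrm2 and Tk1 in that list, had lower values at day 3 without passing. Rrm2b, of the p53-inducible reductase, had 20.2 and 18.5 CPM at day 3 against 41 and 40.3 CPM in uninjured libraries (adjusted p = 0.065). Tk2, the mitochondrial thymidine kinase, had 10.9 and 7.32 CPM at day 3 against 29.4 and 26.4 CPM in uninjured libraries (adjusted p = 0.052). Of 18 mitosis genes 13 rose, with a median of 4.69.

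**Figure D4:**
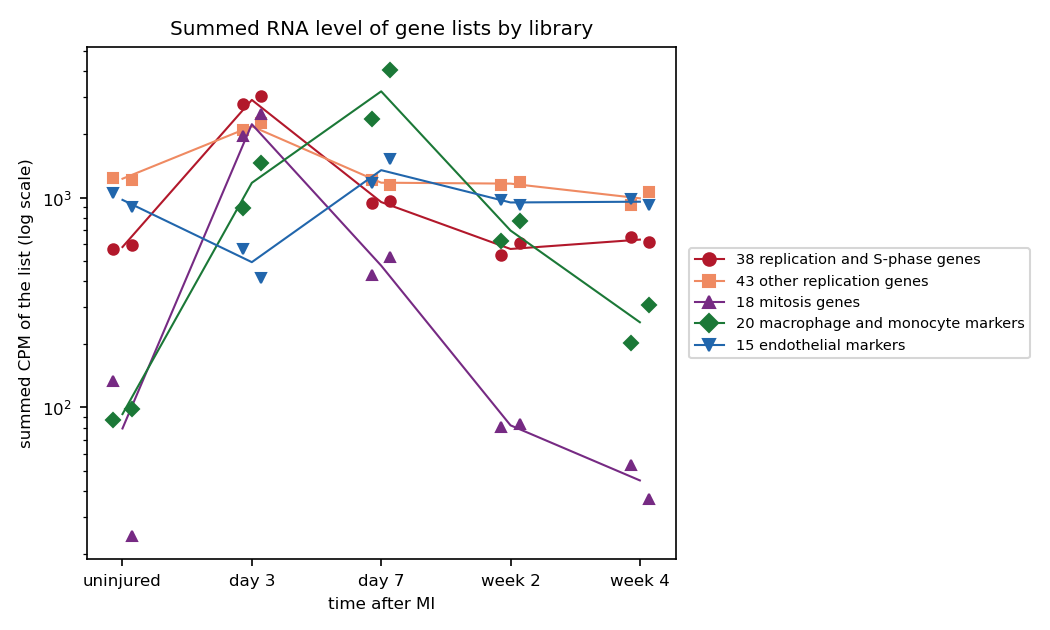
Summed CPM on a log axis of 5 gene lists in each RNA library from uninjured to week 4; points are the 2 libraries of a group and lines join the group means. The 38 replication and S-phase genes sum to 2801 and 3040 CPM at day 3 and 946 and 958 CPM at day 7, while macrophage and monocyte markers reach 2373 and 4043 CPM at day 7.

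By day 7 most of the excess was gone, but not all. The members summed to 946 and 958 CPM in day 7 libraries against 566 and 597 CPM in uninjured libraries. Against uninjured 8 members rose and 1 fell (background 4.39% of tested genes higher and 2.76% lower), with a median log2 fold change of 0.94. Both day 7 libraries lay above both uninjured libraries in 28 members (27.3% of tested genes) and below them in 2 (27.7%). The 8 were Pclaf, Mcm2, Tk1, Chaf1b, Mcm5, Tyms, Gins2 and Rrm2. Pclaf had 37.6 and 29.2 CPM at day 7 against 1.17 and 0.482 CPM in uninjured libraries (5.32 ± 0.62, adjusted p = 0.00047). Mcm2 had 19.3 and 22.4 CPM at day 7 against the same uninjured 1.97 and 2.52 CPM (3.21 ± 0.66, adjusted p = 0.012). Rrm2 had 43.6 and 53 CPM at day 7 against 19.5 and 15.3 CPM in uninjured libraries (1.47 ± 0.27, adjusted p = 0.0068). Tyms had 66.3 and 85.6 CPM at day 7 against 20.1 and 22.8 CPM in uninjured libraries (1.82 ± 0.28, adjusted p = 0.002). In 31 members the day 7 mean lay above the uninjured mean and below the day 3 mean, which held for 20% of tested genes. The count of 9 became 5 without uninjured replicate 1, 5 without uninjured replicate 2 and 3 without day 7 replicate 2, and Pclaf, Tyms and Pola1 were called in every case.

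Set directly against day 3, 5 members fell at day 7 and 0 rose (background 0.555% of tested genes lower and 0.822% higher), and the median log2 fold change of the members was −1.56. Both day 7 libraries lay below both day 3 libraries in 36 of the 38, which held for 23.7% of tested genes; Chaf1a and E2f1 were the exceptions. This comparison shares its day 3 libraries with the one above. The 5 were Pola1 (−3.29 ± 0.44, adjusted p = 0.0064), Pclaf (−2.50 ± 0.52, adjusted p = 0.039), Rrm2 (−2.28 ± 0.27, adjusted p = 0.0064), Rfc4 (−2.12 ± 0.38, adjusted p = 0.019) and Rrm1 (−1.77 ± 0.23, adjusted p = 0.0064). Rrm1 had 97.6 and 101 CPM at day 7 against 327 and 352 CPM at day 3. The count was 3 without day 3 replicate 2, day 7 replicate 1 or day 7 replicate 2, 12 without either uninjured library and 10 without either week 2 library. Pola1, Rrm2 and Rrm1 were called in every case. Pclaf lost its call without day 3 replicate 2, either day 7 library or either week 4 library (adjusted p up to 0.27), and Rfc4 without day 3 replicate 2 or either day 7 library (up to 0.15). DESeq2 called 21 members, and 26 had an unadjusted edgeR p under 0.05. Between those days the macrophage and monocyte sum moved the other way, to 2373 and 4043 CPM at day 7 against 894 and 1457 CPM at day 3, with 0 of 20 markers called. Of 15 endothelial markers 11 rose (median log2 fold change 2.90), with sums of 1175 and 1527 CPM at day 7 against 571 and 414 CPM at day 3. Their part in these values was not tested.

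Pola1 was the member that fell at day 7. It had 4.68 and 5.91 CPM at day 7 against 30.8 and 23.9 CPM in uninjured libraries (−2.37 ± 0.42, adjusted p = 0.0059). The accessory subunit of the same polymerase, Pola2, had 15.3 and 15.9 CPM at day 7 against 23.7 and 9.22 CPM in uninjured libraries, and the day 7 libraries of the primase subunits were not both below uninjured either, at 18.1 and 15.9 CPM for Prim1 and 22 and 18.2 CPM for Prim2. Pola1 had 11.3 and 14.7 CPM at week 2 and 8.17 and 12.3 CPM at week 4, all below the uninjured libraries, though neither time passed (adjusted p = 0.3 and 0.11). Mcm10 was the one other member with both day 7 libraries below both uninjured libraries in CPM, at 2 and 0 counts against 11 and 2 counts, too few for a fold. The higher day 7 library and the lower uninjured library tied at 2 counts, and only the scaling set them apart, at 0.0984 and 0.107 CPM.

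**Figure D5:**
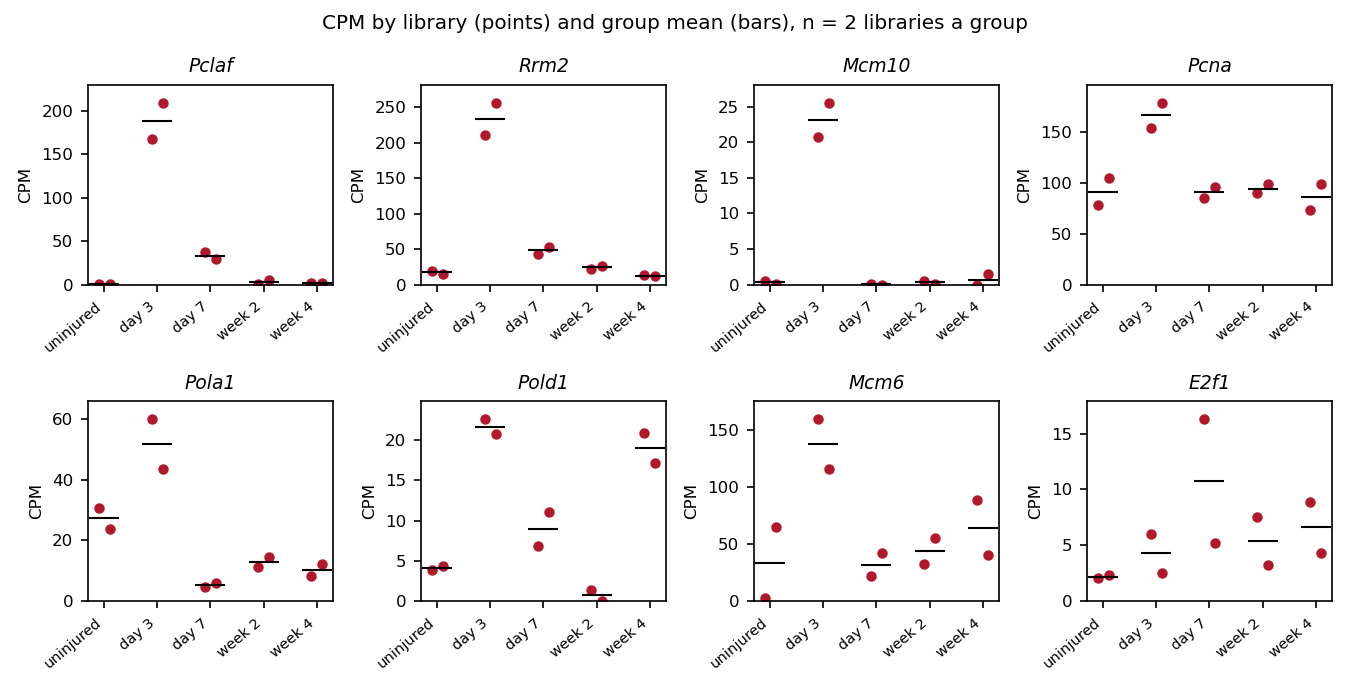
CPM of 8 members in each RNA library (points, 2 a group) with group means (bars), uninjured to week 4, each panel on its own axis from 0. Pola1 falls to 4.68 and 5.91 CPM at day 7, Pold1 is at 20.9 and 17.1 CPM at week 4 against 22.6 and 20.7 CPM at day 3, one uninjured library of Mcm6 is at 3.15 CPM, and E2f1 has its highest library at day 7.

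At week 2 and week 4 the members summed to a level near that of uninjured hearts. The sums were 533 and 605 CPM at week 2 and 646 and 616 CPM at week 4. Against uninjured 0 members were called at week 2 (background 1.89% of tested genes in either direction) and 0 at week 4 (background 2.32%). At week 2, 9 members had an unadjusted edgeR p under 0.05 and DESeq2 called 3; at week 4 the numbers were 5 and 2. The median log2 fold changes were −0.13 and 0.14. At week 4 both libraries lay above both uninjured libraries in 10 members (25.6% of tested genes) and below them in 6 (25.6% of tested genes). Mcm2 had the largest of these differences, with 12.9 and 9.99 CPM at week 4 against 1.97 and 2.52 CPM in uninjured libraries (2.35 ± 0.64, adjusted p = 0.087). Against day 3, 26 members fell and 0 rose at week 4 (background 7.52% lower and 5.84% higher), with a median of −2.28; these share the day 3 libraries with the comparisons above. That count was 16 without day 3 replicate 2, 15 without week 4 replicate 1 and 17 without week 4 replicate 2, and 13 of the 26 were called whichever library was left out. The lowest group mean was at week 2 for 17 members (18.8% of tested genes), in uninjured hearts for 11 (16%) and at week 4 for 6 (19%). Pold1 was an exception at week 4, at 20.9 and 17.1 CPM against 22.6 and 20.7 CPM at day 3, although it held 25 counts and 1 count at week 2. E2f1 was the one member whose highest mean was not at day 3: it had 16.3 and 5.19 CPM at day 7, libraries that lay far apart.

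Accessible chromatin was found at these genes in every group, also where their RNA was scarce. Each of the 38 members had an ATAC-seq peak within 1 kb of its span in all 10 lists. How many of all tested genes meet that rule was not counted, so it sets the members apart from no other genes. All 32 members with a known start had a peak within 100 bases of it in all 10 lists, against 85.78% of 11019 tested genes. For Pclaf the fold enrichment of the peak over the start, the authors' own value for that peak, was 6.87 and 5.92 in the uninjured lists, 19.7 and 28.6 at day 3, 11.8 and 14.7 at day 7, 10.3 and 9.03 at week 2 and 7.86 and 5.29 at week 4. The median over the 32 members was 45.1 and 49.03 in the uninjured lists and 43.9 and 44.26 at day 3. Pclaf was not alone in having both day 3 folds above both uninjured folds. Prim1 had 10.56 and 10.4 at day 3 against 4.99 and 6.95 in the uninjured lists, and Tyms 29.03 and 26.31 against 15.29 and 19.31. Others lay below, such as Mcm5 with 39.58 and 44.87 against 54.62 and 62.81, and Rfc4 with 52.3 and 49.77 against 59.92 and 74.65. How many members lay on each side was not counted. Such folds depend on each list's depth and background, so no change between lists was tested. Within its list Pclaf ranked between 29 and 32 of the 32 members in every list. Prim1 ranked 31 or 32, and Pcna ranked 1 or 2.

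Counted over whole genes, the members carried 74 and 80 peaks in day 3 lists and 63 and 65 in uninjured lists. The lists themselves differed in length, at 105695 and 107798 peaks at day 3 against 63901 and 71909 in uninjured hearts. Peaks of the 10 lists joined into 99 regions within 1 kb of members, of which 53 (53.5%) were in every list, against 27.2% of all 143334 regions. Of the 99, 39 lay over a start, and all 39 were in every list. The share of all regions that lie over a start was not counted. The shares of all regions given here are therefore not matched to the members for starts. Regions present in both day 3 lists and neither uninjured list numbered 8 of 99 (8.08%), against 17.2% of all regions, and 0 of the 8 lay over a start. They were 4 in Prim2 and 1 each in Cdc45, Rfc5, Lig1 and Rrm1. Of the 99, 3 (3.03%) were called at day 3 alone, all in Prim2, against 5.44% of all regions. The same count against uninjured was 6 (6.06%) at day 7, 3 (3.03%) at week 2 and 3 (3.03%) at week 4, against 9.29%, 5.08% and 2.76% of all regions. The one in Rrm1, chr7:102444250-102445545 (mm10) inside the gene, was called in both day 3 and both day 7 lists and in none of the other 6. The one in Lig1, chr7:13292939-13295079, and 1 of the 4 in Prim2, chr1:33657483-33658494, were called in all 8 lists after MI. In the opposite direction 1 region was called in both uninjured lists and neither day 3 list, again in Prim2, against 1.09% of all regions. At day 7, week 2 and week 4 there was 1 such region each, against 2.37%, 2.66% and 3.68% of all regions. Prim2 spans 215986 bases and held 15 of the 99 regions. Peaks were called in single libraries, and 2 lists against 2 cannot reach p under 0.05 in an exact permutation test, so no test was made.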

How the data were processed

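RNA-seq and ATAC-seq of sorted Tcf21-lineage cardiac fibroblasts were used in 5 groups of 2 libraries per assay, grouped by the sample labels. The deposited RNA table holds the authors' expected counts, that is estimated counts per gene that need not be whole. The deposited ATAC-seq lists give for each peak, by the narrowPeak column order, a score, a fold over background (ratio), and the −log10 of p and q. Per the submitters' processing notes, which assign no roles, STAR 2.5.3a, Bowtie2 2.3, MACS2, DESeq2, Trim Galore 0.6 and FastQC were used, with the builds mm10 and GRCm38. The sources used here do not name the counting program, the strand counted or the peak thresholds. Of the members, 13 had counts off a whole number by over 0.005 in at least 1 library, which shows that these counts were estimated: Pole2, Pcna, Rfc5, Fen1, Chaf1a and Ccne2 in all 10 libraries, and Mcm7 and Rfc4 in 8. Whether reads shared with copies or overlapping genes lie behind the decimals was not tested. These 8 genes were tested and reported above like the other members, and their values should be read as uncertain.

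Counts were rounded and fitted in R 4.3.3 with edgeR 4.0.16: TMM scaling, filterByExpr by group, and 1 robust quasi-likelihood model for all 10 libraries, in which group is the sole term and 5 residual degrees of freedom remain. Each contrast was adjusted by Benjamini-Hochberg at 0.05. The fit was also run on simulated data with 200 changed genes, drawn with the spread estimated from these libraries. No result above rests on that run. CPM use the TMM-scaled totals. An SE is the log2 fold change divided by the root of its F. Alternatives were RLE scaling, no filter, DESeq2 1.42.0, a replicate block and leaving out each library. Replicate numbers were not used to pair libraries. PCR reads carry no molecular identifiers in these files, so they are not independent molecules. Peaks of the 10 lists were joined where they overlap, and ATAC-seq starts came from the RefSeq promoter table (GRCm38.p6).

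Members, lists, tests and motifs were chosen with earlier results of these data known. Members named with values were to be those that rose at day 3 and the largest and smallest of each role, at most 30. These came to 32, so Chaf1a and E2f1, and likewise Mcm6, Gins1, Cdt1, Pola2, Pold1, Pole2, Rrm2b and Tk2, were chosen after their values were seen.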

Additional observations from a re-analysis of the deposited data

Results flagged for a closer look

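The change against uninjured differed between times for several members, by edgeR's quasi-likelihood test of one time against the other, which is the test of the difference between both changes since the uninjured libraries cancel. For day 7 against day 3 the log2 differences past the threshold were Pola1 −3.29, Pclaf −2.50, Rrm2 −2.28, Rfc4 −2.12 and Rrm1 −1.77. Pclaf and Rfc4 did not pass in every fit that left out 1 library.

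For week 4 against day 3, 26 members passed, all lower at week 4. Among helicase and loading genes they were Mcm3 −2.34, Mcm4 −1.48, Mcm5 −5.36, Mcm7 −1.96, Cdc6 −4.20, Cdc45 −2.34 and Gins2 −2.95. Among polymerase and primase genes they were Pola1 −2.34, Prim1 −1.78 and Prim2 −1.68. Among genes of the clamp, its loader and strand joining they were Pcna −0.95, Pclaf −6.44, Rfc3 −1.43, Rfc4 −3.02, Rfc5 −2.22, Fen1 −3.21, Lig1 −3.01 and Rpa2 −1.38. Among genes of nucleotide supply they were Rrm1 −2.53, Rrm2 −4.18, Tyms −2.11, Tk1 −4.20 and Dut −1.05. Of the chromatin genes they were Uhrf1 −5.66 and Chaf1b −2.87. Of the genes of S-phase entry it was Ccne2 −3.81. Uhrf1, Ccne2 and Pola1 passed here without having passed at day 3 against uninjured, and Mcm2, Mcm10 and Ccne1 passed at day 3 against uninjured and not here. With 1 library left out at a time, 13 of the 26 passed in all 10 fits. Uhrf1 lost its call in 8 of the 10 fits (adjusted p up to 0.17), Ccne2 in 5 (up to 0.11) and Pola1 in 1, without week 4 replicate 1 (0.054). The other 10 with a lost call were Rfc3 (6 fits), Dut (5), Cdc45 and Rpa2 (4 each), Prim1, Prim2, Pcna and Mcm7 (3 each) and Mcm4 and Chaf1b (1 each), with an adjusted p of up to 0.3 for Prim2 and Dut.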

How the results depend on the processing

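RLE scaling called the same members as TMM in all 6 comparisons. The number of members called changed by more than 1.5 times in these cases: without the filter on low counts it was 2 at week 2 and 2 at week 4 against uninjured, and 17 for day 7 against day 3. With DESeq2 it was 3, 2 and 21 for the same comparisons. The cause was not tested. Leaving out 1 library at a time gave 13 to 29 members at day 3, 3 to 10 at day 7, 0 to 4 at week 2 and 0 to 2 at week 4 against uninjured, 3 to 12 for day 7 against day 3 and 15 to 28 for week 4 against day 3. Where that leaves a group with 1 library, the fit assumes that it varies like the other groups. The summed level of the members at day 7, 952 CPM, was 961.9 CPM on plain library totals. Chaf1a, at −0.12 (log2) for day 7 against day 3, changed sign to 0.008 with the replicate block, and ranged from −0.64 to 0.73 with 1 library left out, above 0 without day 3 replicate 1 (0.73) or day 7 replicate 1 (0.09).

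No pairing by replicate number was detected: the correlation of deviations of same-numbered libraries was between −0.02 and 0.03 over the 10 pairs of groups. Whether same-numbered libraries were handled together cannot be told from this. With the replicate number as a block 25 members were called at day 3, of which 24 were also called without it, and 9, 0 and 0 at day 7, week 2 and week 4 against uninjured, 4 for day 7 against day 3 and 26 for week 4 against day 3.

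With 2 libraries a group, members at a few counts, such as Pole, Mcm10, Gins1 and Uhrf1, have wide errors, and a difference that missed the threshold is not shown to be absent.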

Other observations

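The replication genes described next are outside the 38 and were chosen after their values were seen. Slbp, which binds the stem-loop of replication-dependent histone mRNAs, had 231 and 223 CPM in day 3 libraries against 241 and 270 CPM in uninjured libraries (edgeR adjusted p = 0.67). Against those uninjured libraries it fell at day 7, to 125 and 100.3 CPM (log2 fold change −1.18 ± 0.21, adjusted p = 0.0057), and at week 4, to 114 and 131 CPM (−1.06 ± 0.21, adjusted p = 0.021). Cdc7, the kinase that activates origins, had 15.1 and 12.2 CPM at day 3 against 14.2 and 17.3 CPM in uninjured libraries. Its activating subunit Dbf4 had 17.1 and 26.8 CPM at day 3 against 1.55 and 3.54 CPM in uninjured libraries. In the origin recognition complex Orc1, the subunit known to be regulated through the cell cycle, had 17.7 and 9.53 CPM at day 3 against 0.267 and 0.107 CPM in uninjured libraries and missed the threshold (adjusted p = 0.055). Orc2 had 31.6 and 27.6 CPM at day 3 against 32.1 and 28.8 CPM in uninjured libraries, in overlapping groups.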
